A study of Mus musculus with 10 samples.

Results

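Inner hair cells (IHCs) picked from the adult mouse cochlea were compared with outer hair cells (OHCs) picked at postnatal day 7 (P7), with 2 bulk RNA-seq libraries on each side and all listed genes. These are 4 of the 10 libraries of the series, which also holds supporting cells (SCs), converted hair cells (cHCs) and OHCs at about P22. The libraries were chosen by the names of the count files, those of mice of P74 and P75 for IHCs and numbers 15 and 14 for OHCs (P7), and not by the record a file was attached to, because 4 of the 10 records carried a file named for another sample. In each library, fluorescent cells were picked by hand after enzymatic dissociation, and their total RNA was converted to cDNA, amplified and sequenced.

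The IHCs came from mice with Pval-Cre, which drives Cre from the parvalbumin gene, and a Rosa26 reporter in which Cre removes a stop cassette before tdTomato; one library was from P74 and the other from P75. The labels give OHCs (P7) as cells of prestin-YFP mice with one tagged copy of the prestin gene, while the list of mouse lines in the study gives a tamoxifen-induced prestin CreERT2 driver with tdTomato for the same cells, and which line applies was not settled. The OHCs (P22), used below as values side by side and in further contrasts of the same fit, came from prestin-YFP mice, with P21 in the name of one library and P22 in that of the other. The SCs, also set beside some genes below, came from mice with a tamoxifen-induced Fgfr3-iCreER driver and a Rosa26 tdTomato reporter. SC library 12 was from P27 and library 11 from P26, so SCs differed in age and mouse line from both groups compared. The study gives a mean number of cells for each group, larger for IHCs than for OHCs (P7), while the number for a single library and the mice behind it are not given in the sources used here, so p-values measure the spread between libraries. Age, cell type, reporter line, mean number of cells and library number series all changed together between IHCs and OHCs (P7), and their parts in a difference cannot be told apart.

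Both hair cell types carry a stereocilia bundle that turns sound-driven movement into a current. IHCs pass the signal to the auditory nerve through ribbon synapses that release glutamate. OHCs change length through the motor protein prestin, which amplifies the vibration, and receive a cholinergic efferent input through nicotinic receptors. Mouse OHCs at P7 precede the onset of hearing and are still maturing.

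Promoter sequences are shown for 7 genes that were called different between the groups, so that what lies before the genes on each side can be read: OHC genes that were lower in IHCs (Slc26a5, Ocm, Fam40b and Lbh) and genes that were higher in IHCs (Slc7a14, Fam65c and Ano4). Each is the window of 250 bases before the annotated start in RefSeq (GRCm38.p6), 5′ to 3′ on the strand of the gene, and capitals mark, on either strand, the TATA box (TATAAA), the CCAAT box (CCAAT), an E-box (CAGCTG) or a T-box core (TCACACC). RefSeq names Fam40b as Strip2 and Fam65c as Ripor3.
Slc26a5 (chr5:21865605-21865854, minus strand): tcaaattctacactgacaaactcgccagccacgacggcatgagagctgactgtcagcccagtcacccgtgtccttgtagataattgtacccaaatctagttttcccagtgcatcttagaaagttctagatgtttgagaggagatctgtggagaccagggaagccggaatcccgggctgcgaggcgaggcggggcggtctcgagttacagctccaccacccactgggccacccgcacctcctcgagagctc
Ocm (chr5:144050610-144050859, minus strand): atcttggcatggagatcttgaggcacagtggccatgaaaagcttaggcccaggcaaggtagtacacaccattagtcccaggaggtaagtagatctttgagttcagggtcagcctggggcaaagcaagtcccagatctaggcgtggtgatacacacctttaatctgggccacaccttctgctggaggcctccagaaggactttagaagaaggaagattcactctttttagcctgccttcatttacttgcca
Fam40b (chr6:29916763-29917012, plus strand): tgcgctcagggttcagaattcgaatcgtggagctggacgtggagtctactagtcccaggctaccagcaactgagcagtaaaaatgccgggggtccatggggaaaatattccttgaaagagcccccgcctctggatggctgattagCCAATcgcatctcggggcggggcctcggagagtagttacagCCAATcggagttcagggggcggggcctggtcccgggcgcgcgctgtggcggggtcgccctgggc
Lbh (chr17:72918055-72918304, plus strand): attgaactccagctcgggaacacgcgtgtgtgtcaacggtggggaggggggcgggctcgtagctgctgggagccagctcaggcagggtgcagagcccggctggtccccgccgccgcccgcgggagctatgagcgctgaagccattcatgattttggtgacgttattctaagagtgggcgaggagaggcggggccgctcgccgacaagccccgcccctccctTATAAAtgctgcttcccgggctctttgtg
Slc7a14 (chr3:31310320-31310569, minus strand): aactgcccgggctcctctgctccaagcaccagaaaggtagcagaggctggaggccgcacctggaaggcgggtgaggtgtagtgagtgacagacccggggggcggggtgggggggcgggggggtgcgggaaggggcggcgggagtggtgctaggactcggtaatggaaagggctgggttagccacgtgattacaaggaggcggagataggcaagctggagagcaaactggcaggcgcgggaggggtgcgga
Fam65c (chr2:168010619-168010868, minus strand): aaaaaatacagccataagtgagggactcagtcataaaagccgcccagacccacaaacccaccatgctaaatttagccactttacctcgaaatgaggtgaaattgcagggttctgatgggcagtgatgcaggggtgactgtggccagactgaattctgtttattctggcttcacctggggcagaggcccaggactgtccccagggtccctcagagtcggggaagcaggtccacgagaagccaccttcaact
Ano4 (chr10:89257791-89258040, minus strand): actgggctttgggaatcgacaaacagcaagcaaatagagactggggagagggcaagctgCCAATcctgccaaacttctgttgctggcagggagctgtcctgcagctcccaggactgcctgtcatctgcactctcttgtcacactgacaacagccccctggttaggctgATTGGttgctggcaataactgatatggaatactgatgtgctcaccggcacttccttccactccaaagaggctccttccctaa
None of the 4 motifs was in the windows of Slc26a5, Ocm, Slc7a14 and Fam65c, whereas Fam40b held the CCAAT box 105 and 64 bases before the start, Lbh held the TATA box 29 bases before it, and Ano4 held the CCAAT box 191 bases before it and its reverse complement 82 bases before it. A match is a run of letters and not a measured site. Over one window for each of 27025 genes, 13% held the TATA box, 34.5% the CCAAT box, 12.8% the E-box and 3.31% the T-box core on either strand. A window was found for 20 of the 22 genes called higher in IHCs, of which 0 held the TATA box, 6 the CCAAT box, 3 the E-box and 0 the T-box core. A window was found for 31 of the 42 genes called lower, of which 4 held the TATA box, 10 the CCAAT box, 2 the E-box and 3 the T-box core.

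The authors deposited raw counts of reads per gene, and the libraries held 15016129 (15) and 37338042 (14) counts on genes in OHCs (P7) and 27301979 (P74) and 26513178 (P75) in IHCs. Levels are given here as CPM (counts as a share of the library total, in parts of 1e+06) scaled with TMM factors, which correct for differences in RNA composition, always in the order 15 and 14 for OHCs (P7), P74 and P75 for IHCs and P21 and P22 for OHCs (P22). A count of 0 allows a level of up to 3 counts, which is 0.200 and 0.0803 CPM before TMM scaling in OHCs (P7) and 0.110 and 0.113 CPM in IHCs. The share of read pairs counted on genes was 52.8% and 51.7% in OHCs (P7) and 40.0% and 40.3% in IHCs, and the part of this gap in the results was not tested. Rank correlation across genes (Spearman's rho), a description over genes that share a library and its depth, lay between 0.795 and 0.800 for the 4 pairs of an IHC with an OHC (P7) library. It was 0.868 between the IHC libraries and 0.861 between the OHC (P7) libraries.

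The genes called between IHCs and OHCs (P7) included markers of each type and a set of transcripts present on one side and at or near 0 on the other. Of 16891 genes tested, 64 (0.379%) passed an adjusted p of 0.05 in edgeR's quasi-likelihood F-test with Benjamini-Hochberg adjustment: 22 (0.130%) were higher in IHCs and 42 (0.249%) were lower. The groups did not overlap for any of these 64 genes, against 23.6% of all tested genes with both IHC libraries above both OHC (P7) libraries and 23.0% with both below. An unadjusted p under 0.05 was reached by 2112 genes (12.5%), 1062 of them higher (6.29%) and 1050 lower (6.22%). Counts within the gene lists below stand against these shares. The smallest change that edgeR called was 2.78 on the log2 scale, and limma-voom called smaller ones. For a gene without a count on one side, edgeR's log2 fold change and its SE depend on a small count that the software adds. The lower bound given beside it ("at least") is what the counts show. The order of such genes by log2 fold change, also among the largest rises and falls below, is not measured. In the plot of all tested genes, the calls lie away from 0. Genes that were not called, such as Slc17a8, lie further out than some calls at a similar level, such as Kncn. 

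**Figure D1:**
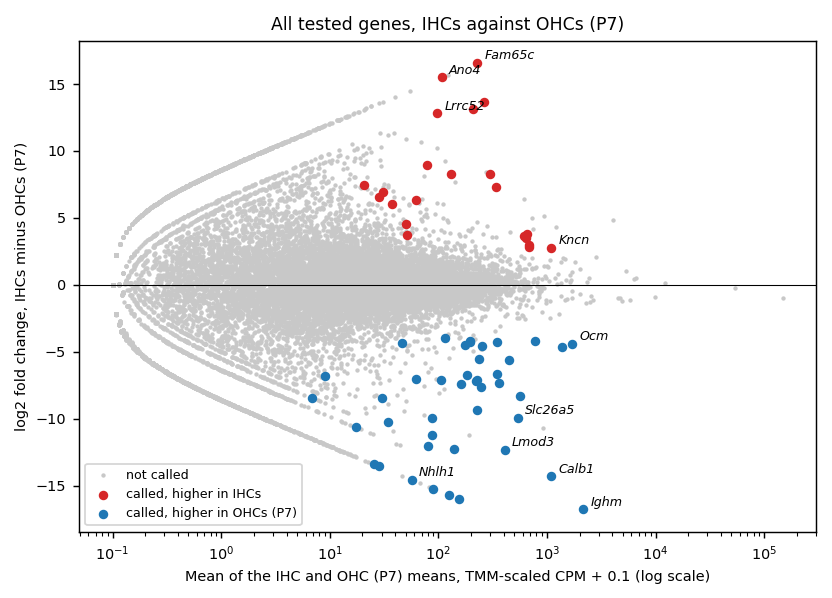
Each point is 1 of 16891 genes, by its mean level in both groups (TMM-scaled CPM, log axis) and its log2 fold change, IHCs minus OHCs (P7). The 22 genes called higher in IHCs (red) and the 42 called lower (blue) stand at or beyond 2.78 log2 units from 0.

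The number of calls depended on single libraries and on the test. Without the P74 IHC library the number called fell from 64 to 37, 14 higher and 23 lower, and the number higher was 9 without OHC (P7) library 15 and 11 without library 14. limma-voom, the method the study names, called 171 higher (1.01%) and 196 lower (1.16%), among them 56 of the 64. DESeq2 called 682 higher (4.04%) and 648 lower (3.84%), among them all 64. On data simulated with edgeR's own estimates of spread, most of its calls were of unchanged genes. That setting can favour edgeR and cannot rank the methods on the real counts, so DESeq2 counts are given for comparison only.

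The OHCs (P22) give 2 further contrasts from the same fit. The labels call both IHCs and OHCs (P22) mature, though the former were from P74 and P75 and the latter from P21 and P22. IHCs against OHCs (P22) gave 247 calls (1.46%), 165 higher in IHCs (0.977%) and 82 lower (0.485%). OHCs (P22) against OHCs (P7) gave 93 calls (0.551%), 22 higher at P22 (0.130%) and 71 lower (0.420%). Each of these contrasts shares libraries with the comparison of IHCs and OHCs (P7), so the levels of OHCs (P22) are set beside single genes below and no overlap is drawn from them.

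Genes known to mark IHCs were higher in both IHC libraries for all 8 members that could be tested, of 9 listed, against 23.6% of all tested genes. Only 2 were called, against 0.13% of all tested genes called higher. Calb2, which encodes the calcium buffer calretinin, measured 1044 and 1369.9 CPM in IHCs and 142 and 160.1 in OHCs (P7), 7.98-fold higher (log2 fold change 3.0, SE 0.46, adjusted p = 0.0229; chromosome 8, 112661402 to 112692110 in mm9). Slc7a14, which encodes a lysosomal amino acid transporter of the cationic family, measured 1117 and 1248 CPM in IHCs and 100.4 and 113 in OHCs (P7), 11.1-fold higher (log2 fold change 3.47, SE 0.58, adjusted p = 0.0314; chromosome 3, 31101832 to 31209300). In both genes the 2 libraries of a group lay close to each other and far from the other group. In OHCs (P22), Calb2 stood at 43.6 and 44.1 and Slc7a14 at 6.52 and 4.8.

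The remaining members of the list had large differences that did not pass. Otof, which encodes the calcium sensor otoferlin needed for transmitter release at the ribbon, measured 5009.9 and 4216 CPM in IHCs and 1036 and 1145 in OHCs (P7) (log2 fold change 2.08, SE 0.40, adjusted p = 0.064). Slc17a8, which encodes the vesicular glutamate transporter VGLUT3 of IHCs, measured 1907 and 1763 CPM against 75.5 and 26.3 (log2 fold change 5.17, SE 1.36, adjusted p = 0.173). Both IHC libraries were far above both OHC (P7) libraries for both genes, and limma-voom called both (adjusted p = 0.000856 for Otof and 0.0024 for Slc17a8).
Atp2a3, a calcium pump of the endoplasmic reticulum, measured 1289 and 1548 CPM in IHCs and 60.9 and 27 in OHCs (P7) (adjusted p = 0.0946 in edgeR). Tbx2, a transcription factor that sets IHC identity, measured 272 and 198 against 4.3 and 13.9 (adjusted p = 0.176). Both genes separated the groups. Dnajc5b, a member of the cysteine string protein family, had no count in either OHC (P7) library and 291 and 201 CPM in IHCs, at least 1735-fold higher, with an adjusted p of 0.197. Shtn1, listed in the files as 4930506M07Rik, was at 64.1 and 59.2 CPM in IHCs and 18.3 and 1.36 in OHCs (P7), and Fgf8 had no count in any of the 4 libraries. The median log2 fold change of the 8 members was 4.08, against 0 over all genes tested, and limma-voom called 7 of them. The number called by edgeR was 0 when any one of the 4 libraries was left out.

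Genes known to mark OHCs were lower in both IHC libraries for all 12 members, against 23.0% of all tested genes. Of these, 6 were called, against 0.249% of all tested genes called lower. Slc26a5, which encodes prestin, measured 1061 and 1094 CPM in OHCs (P7) and 1.31 and 0.859 in IHCs, 992-fold lower (log2 fold change -9.95, SE 0.85, adjusted p = 0.00124; chromosome 5, 21316473 to 21371422). Ocm, which encodes the calcium buffer oncomodulin of OHCs, measured 3400.2 and 3160.3 CPM in OHCs (P7) and 239 and 68.6 in IHCs, 21.3-fold lower (log2 fold change -4.41, SE 0.65, adjusted p = 0.0175; chromosome 5, 144780673 to 144787539). OHCs were picked by a reporter driven from the prestin gene, so its difference checks the labels and is not a finding. Prestin transcript rested on 64 counts over both IHC libraries, while Ocm was at 68.6 CPM or more and differed between the 2 IHC libraries. Fam40b, known as Strip2, a member of the striatin-interacting protein family, measured 2722 and 2583 CPM in OHCs (P7) and 115 and 92.8 in IHCs (log2 fold change -4.67, SE 0.40, adjusted p = 0.00124; chromosome 6, 29867013 to 29909681). Lmod3, a leiomodin that nucleates actin filaments, measured 770.4 and 863 in OHCs (P7) and 0.135 and 0.172 in IHCs (log2 fold change -12.34, SE 1.09, adjusted p = 0.00124; chromosome 6, 97188522 to 97202774). Among the members called, Lmod3 showed the largest gap, with a handful of counts in each IHC library.
Chrna10, a subunit of the nicotinic receptor of the efferent synapse, measured 446 and 486 CPM in OHCs (P7) and 11.5 and 8.39 in IHCs (log2 fold change -5.55, SE 0.57, adjusted p = 0.00246; chromosome 7, 109259780 to 109265227). Lbh, a transcription cofactor, measured 86.9 and 89 in OHCs (P7) and 2.56 and 6.19 in IHCs (log2 fold change -4.33, SE 0.69, adjusted p = 0.0277; chromosome 17, 73267645 to 73291282). Lbh was the one called member that limma-voom did not call (adjusted p = 0.0688).

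The other 6 OHC genes did not pass in edgeR. Ikzf2, which encodes the transcription factor Helios of OHCs, measured 463 and 482 CPM in OHCs (P7) and 9.46 and 24.2 in IHCs (adjusted p = 0.0724), and Sri, which encodes the calcium-binding protein sorcin, 276 and 313 against 35.3 and 35.9 (adjusted p = 0.064). Car7, a carbonic anhydrase, Bcl11b and Insm1, 2 transcription factors, had adjusted p-values of 0.707, 0.431 and 0.203. The list's median was −4.55 on the log2 scale, or −4.45 with members at 0 set to their bound, against 0 over all genes tested. In OHCs (P22) the 2 libraries held 3789 and 2749 CPM of Slc26a5, 7562 and 9278 of Ocm and 1588 and 1834 of Lbh, above both OHC (P7) libraries for each gene.

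**Figure D2:**
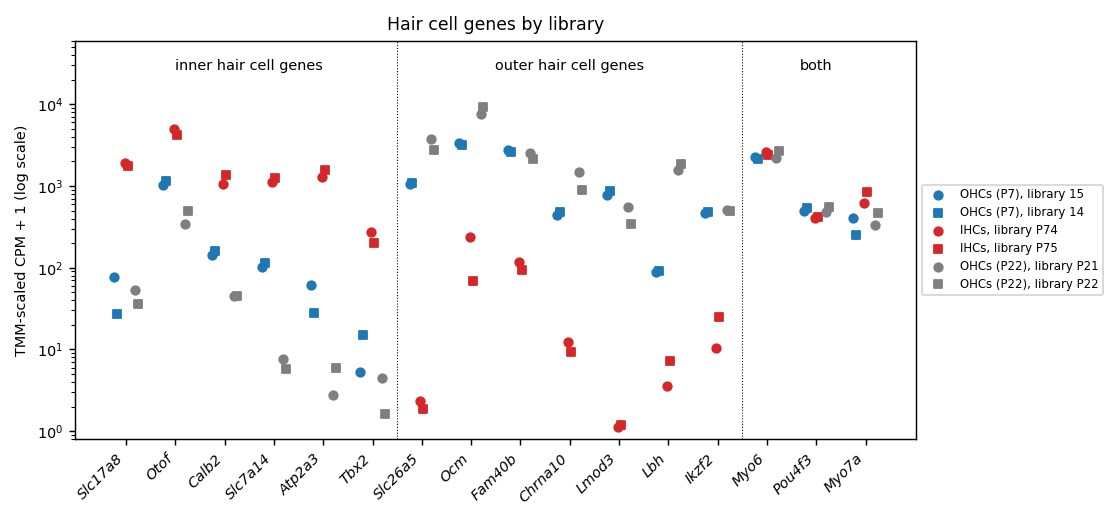
TMM-scaled CPM plus 1 (log axis) of 16 hair cell genes, one point per library, with OHCs (P7) in blue, IHCs in red and OHCs (P22) in grey. IHC genes stand higher in red than in blue, OHC genes the reverse, and Myo6, Pou4f3 and Myo7a show smaller gaps between the colours.

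Some genes shared by both hair cell types differed less. Myo6, the unconventional myosin used to label hair cells, measured 2257 and 2144 CPM in OHCs (P7) and 2604 and 2426 in IHCs (log2 fold change 0.19, SE 0.31, adjusted p = 0.855). Pou4f3, the transcription factor required for hair cell survival, measured 487 and 543 and 404 and 420.4 (log2 fold change -0.32, SE 0.43, adjusted p = 0.817). Myo7a, the myosin at the upper tip link insertion, measured 407 and 251 and 621 and 841 (log2 fold change 1.15, SE 0.46, adjusted p = 0.37). None of these 3 passed, and each was at 251 CPM or more in all 4 libraries. The hair cell list had 14 members, of which 1, Calb1, was called, with a median of −0.65. Of the 14, 8 were lower in both IHC libraries, against 23.0% of all tested genes, and 3 higher in both, against 23.6%. Atoh1, the factor that starts hair cell differentiation, had 2.15 and 6.44 CPM in OHCs (P7) and no count in either IHC library (adjusted p = 0.0724).

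Calcium buffers differed in both directions. Calb1, which encodes calbindin, measured 2201 and 2139 CPM in OHCs (P7), 0.202 and 0 in IHCs and 0.529 and 23.9 in OHCs (P22), with a ratio of 21471 between the means of OHCs (P7) and IHCs (log2 fold change -14.32, SE 1.99, adjusted p = 0.0149; chromosome 4, 15808411 to 15835211). The IHC level rests on 6 counts in the P74 library and 0 in the P75 library. Pvalb, which encodes parvalbumin and whose gene drives the Cre of the IHC mice, measured 228 and 204 in OHCs (P7) and 62.1 and 42.9 in IHCs (log2 fold change -2.04, SE 0.53, adjusted p = 0.172).
Compared per kilobase of exon, the level of Ocm was 4475 CPM in OHCs (P7) and 210.1 in IHCs, Calb1 448 and 0.0209, Pvalb 208 and 50.4, and Calb2 86.8 and 693. Ocm was therefore the buffer with the highest level per length in OHCs (P7), and Calb2 in IHCs, among these 4. Calm2, a calmodulin gene, was at 3693 and 3235 CPM in OHCs (P7) and 7316 and 6943 in IHCs, a difference that edgeR did not call (adjusted p = 0.249) and limma-voom did (adjusted p = 0.000517). Atp2b2, the calcium pump of the hair bundle, measured 562 and 753 CPM in OHCs (P7), 86.5 and 73.1 in IHCs and 3026 and 1362 in OHCs (P22) (adjusted p = 0.295). Cabp2, a calmodulin-like regulator of the hair cell calcium channel, measured 11.1 and 22.7 in OHCs (P7) and 469 and 408 in IHCs (adjusted p = 0.327). Of 19 calcium buffer and pump genes tested, Calb2 was called higher and Ocm and Calb1 lower, with a median of 0.22 that was −0.015 without OHC (P7) library 15, −0.12 without the P74 IHC library, and 0.62 and 0.54 without library 14 and the P75 library.

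Of the mechanotransduction genes, the 5 described here did not pass. Gpr98, known as Adgrv1, a large adhesion receptor of growing stereocilia, measured 255 and 301 in OHCs (P7) and 64.1 and 85.8 in IHCs (adjusted p = 0.35). Both OHC (P7) libraries lay above both IHC libraries. Tmc1, a subunit of the mature transduction channel, measured 403 and 399 CPM in OHCs (P7) and 249 and 184 in IHCs (adjusted p = 0.753). Tmc2, the subunit of the early channel, measured 22.9 and 4.94 and was without a count in both IHC libraries (at least 136-fold lower, adjusted p = 0.198). Cdh23, a cadherin of the tip link, measured 344 and 435 and 441 and 423, and Strc, which encodes stereocilin of the bundle top connectors of OHCs, 699.8 and 674 and 143 and 134 (adjusted p = 0.961 and 0.0845). The 18 genes of the list had a median of 0.02, which was −0.13 without OHC (P7) library 15, −0.18 without the P74 IHC library, and 0.45 and 0.19 without library 14 and the P75 library.

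Among the actin genes of stereocilia, 2 of 22 were called, both lower in IHCs. Espnl, an espin-like actin regulator, measured 647 and 785 CPM in OHCs (P7) and 7.54 and 1.2 in IHCs, 164-fold lower (log2 fold change -7.35, SE 0.98, adjusted p = 0.0149; chromosome 1, 93218652 to 93244880). Myo3b, a class III myosin that carries cargo to stereocilia tips, measured 70.5 and 42.9 in OHCs (P7) and 0 in both IHC libraries, at least 555-fold lower (log2 fold change -13.57, SE 1.63, adjusted p = 0.0149; chromosome 2, 69877183 to 70267255). In OHCs (P22), Espnl was at 0 and 0.0421 CPM and Myo3b at 0 in both libraries. Myo3b was thus without a count in the mature libraries of either cell type. Espnl was higher in IHCs than in OHCs (P22) (log2 fold change 7.09, adjusted p = 0.0193). Myo3a, the paralogue of Myo3b, was at 187 and 129.8 in OHCs (P7), 442 and 285 in IHCs and 127 and 156 in OHCs (P22) (adjusted p = 0.414). Espn, the espin gene itself, measured 131 and 140.4 and 106 and 97.7 in OHCs (P7) and IHCs. The median of the list was −0.26, and −0.012 without OHC (P7) library 14. Ptprq, a phosphatase of the stereocilia base, measured 3849 and 3289 in OHCs (P7) and 1534 and 1366 in IHCs (adjusted p = 0.155; limma-voom 0.00187).

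No gene of the ribbon synapse was called by edgeR, and the list was not tested as a group. Of 20 tested, limma-voom called 3, all higher in IHCs, against 1.01% of all tested genes. In edgeR, 5 had an unadjusted p under 0.05, all higher, against 6.29%. Both IHC libraries were higher for 5 and lower for 5, against 23.6% and 23.0%. Cacna1d, the calcium channel that triggers release, measured 544 and 528 CPM in OHCs (P7) and 374 and 271 in IHCs (adjusted p = 0.838). Ctbp2, which encodes the main ribbon protein RIBEYE, measured 94.1 and 99.6 and 38.8 and 103 (adjusted p = 0.872), and its IHC libraries differed from each other more than the groups did. Counts are per gene, so the transcript of RIBEYE is not separated from any other of Ctbp2. Cabp1, a calcium sensor that regulates the same channel, had no count in OHCs (P7) and 38 and 43.6 CPM in IHCs (adjusted p = 0.171; limma-voom 0.012). The other 2 called by limma-voom were Otof and Slc17a8. The list's median was −0.21, and 0.41 without OHC (P7) library 14.

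On the efferent side, both subunits of the hair cell nicotinic receptor stood lower in IHCs. Beside Chrna10, Chrna9 measured 131 and 159.7 CPM in OHCs (P7) and 7.14 and 17.8 in IHCs (log2 fold change -3.54, SE 0.68, adjusted p = 0.0624), a difference short of the threshold. Kcnn2, the SK2 potassium channel that the receptor's calcium opens, measured 117 and 127 and 15.7 and 6.15 (adjusted p = 0.1). In all 3 genes the OHC (P7) libraries lay above both IHC libraries, and OHCs (P22) were at 1466 and 894 for Chrna10, 405 and 134 for Chrna9 and 228 and 203 for Kcnn2. Of 13 efferent synapse genes tested, Chrna10 was the one called, and the list's median of −0.18 was 0.41 without OHC (P7) library 15, and −0.36, −0.92 and −0.52 without library 14, P74 and P75.

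One potassium channel gene was called. Lrrc52, an auxiliary subunit of the BK channel that shifts its opening to more negative voltage, had 1 count in OHC (P7) library 15, 0 in library 14 and 232 and 158 CPM in IHCs (10059-fold from the summed counts, 95% counting interval 1805 to 397351; log2 fold change 12.83, SE 2.0, adjusted p = 0.025; chromosome 1, 169375806 to 169396911). OHCs (P22) held 227 and 70.5 CPM. Without OHC (P7) library 14 its adjusted p was 0.0657. Kcnma1, the BK channel itself, measured 106 and 25.7 in OHCs (P7) and 187 and 350.5 in IHCs (adjusted p = 0.352). For Kcnma1, library 15 stood well above library 14 and the groups did not overlap. Kcnmb2, another auxiliary subunit of that channel, went the other way, with 59 and 33.1 in OHCs (P7) and 1.01 and 0.0344 in IHCs (adjusted p = 0.176; limma-voom 0.0418). The 21 potassium channel genes had a median of 0.98, which was 0.23 without OHC (P7) library 15, 1.47 without library 14 and 0.63 without the P75 IHC library. Of 22 sodium and calcium channel genes, 0 were called by edgeR, with 4 at an unadjusted p under 0.05, and 1 by each of limma-voom and DESeq2.

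Of 43 transcription factor genes, 2 were called, both lower in IHCs. Nhlh1, a basic helix-loop-helix factor of early neurons, measured 113 and 114 CPM in OHCs (P7) and 0 in both IHC libraries, at least 1112-fold lower (log2 fold change -14.57, SE 1.67, adjusted p = 0.0115; chromosome 1, 173982423 to 173987704). Six2, a homeobox factor, measured 913 and 823 in OHCs (P7), 5.52 and 30.6 in IHCs and 597 and 540.0 in OHCs (P22) (log2 fold change -5.59, SE 1.0, adjusted p = 0.0459; chromosome 17, 86083608 to 86087594). Nhlh1 was near 0 in both mature hair cell types, whereas Six2 was at 540.0 CPM or more in OHCs of both ages. Without the P74 IHC library the adjusted p of Six2 was 0.0909. Mycl1, a member of the Myc family, measured 62.2 and 129 in OHCs (P7) and 0.236 and 0.0344 in IHCs (adjusted p = 0.0514). Rora and Rorb, nuclear receptors, measured 1069 and 983 and 1277 and 1919 CPM in IHCs against 380.5 and 468 and 749 and 1089 in OHCs (P7), with adjusted p-values of 0.404 and 0.608. The list's median was −0.33, which was −0.11 without OHC (P7) library 14 and −0.65 without the P75 IHC library.

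The genes with the largest rises in IHCs were nearly silent in OHCs (P7). Fam65c, known as Ripor3, had no count in either OHC (P7) library and 501 and 406 CPM in IHCs, at least 3201-fold higher (log2 fold change 16.57, SE 1.95, adjusted p = 0.0149; chromosome 2, 167805664 to 167836118). Ano4, of the anoctamin family of scramblases and channels, also had none and stood at 263 and 166 in IHCs, at least 1515-fold higher (log2 fold change 15.49, SE 2.55, adjusted p = 0.0497; chromosome 10, 88411740 to 88720535). In OHCs (P22), Fam65c was at 0.265 and 1.43 and Ano4 at 0.705 and 0.168, which is near 0 as in OHCs (P7). March4, a membrane-bound ubiquitin ligase, had 2 counts in OHC (P7) library 14, 0 in library 15 and 679.6 and 376 CPM in IHCs (13644-fold from the summed counts, 95% counting interval 3777 to 112672; adjusted p = 0.0439). Syne1, which encodes nesprin 1 of the nuclear envelope, had 1 count in each OHC (P7) library and 410.3 and 423 CPM in IHCs (10743-fold from the summed counts, 95% counting interval 2974 to 88711; adjusted p = 0.0149). OHCs (P22) held 0.970 and 0.421 CPM of March4 and 2.2 and 1.56 of Syne1.

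Others of the largest rises were shared with OHCs (P22). Osbp2, an oxysterol-binding protein, measured 1.68 and 2.13 CPM in OHCs (P7), 399.5 and 789 in IHCs and 1172 and 913 in OHCs (P22) (log2 fold change 8.28, SE 1.19, adjusted p = 0.0174). Gpx2, a glutathione peroxidase, measured 0.806 and 7.56, 568 and 790.3 and 332 and 436 in the same order (log2 fold change 7.32, SE 0.99, adjusted p = 0.0149), and 151 and 244 in the SC libraries. For both genes all 4 mature hair cell libraries lay above both OHC (P7) libraries.

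Several of the rises were of genes that were also high in SCs. Bcl6, a transcriptional repressor, measured 0.0671 and 0.518 CPM in OHCs (P7), 154 and 159 in IHCs and 57.8 and 109 in SCs (libraries 12 and 11). Fxyd6, a regulator of the sodium pump, measured 1.48 and 0.246, 378 and 145 and 126 and 114 in that order. Id1, an inhibitor of helix-loop-helix factors, measured 0.201 and 0.737, 54.1 and 69.5 and 197 and 102, and Prom2, which encodes prominin 2 of membrane protrusions, 0.806 and 0.409, 64.6 and 46.6 and 755 and 455. SC levels of Prom2 and Id1 lay above those of IHCs in both libraries, and this held for 5 of the 22 genes called higher, the others being Rhou, Cobll1 and 1190002N15Rik. Mapk10, the JNK3 kinase, measured 0.269 and 0.191 in OHCs (P7), 59 and 23.6 in IHCs and 20.7 and 9.88 in SCs. The part of other cells picked with the IHCs in these rises was not tested.

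The most abundant genes called higher in IHCs included Kncn, Kifap3, Tmod2 and Madd, beside Calb2 and Slc7a14. Kncn, which encodes kinocilin, measured 224 and 335 CPM in OHCs (P7), 2046 and 1785 in IHCs and 1471 and 741 in OHCs (P22), 6.85-fold higher in IHCs than in OHCs (P7) (log2 fold change 2.78, SE 0.47, adjusted p = 0.0339; chromosome 4, 115557005 to 115562131). Tmod2, a tropomodulin that caps actin filaments, measured 138 and 206, 1202 and 1185 and 559 and 777 in the same order (log2 fold change 2.80, SE 0.45, adjusted p = 0.0277). Both were intermediate in OHCs (P22). Kifap3, the kinesin-associated subunit of kinesin II, measured 105 and 71.7 CPM in OHCs (P7), 1100.0 and 1352 in IHCs and 110.2 and 44.1 in OHCs (P22) (log2 fold change 3.79, SE 0.60, adjusted p = 0.0277). Madd, an exchange factor for the vesicle GTPase Rab3, measured 82.2 and 102, 1249 and 1002 and 299 and 559 (log2 fold change 3.61, SE 0.58, adjusted p = 0.0279).

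The largest falls in IHCs were of genes that were well expressed in OHCs (P7) and at or near 0 in IHCs. Rasd2, a small GTPase, measured 247 and 377 CPM in OHCs (P7) and 0 in both IHC libraries, at least 3056-fold lower (log2 fold change -16.03, SE 2.54, adjusted p = 0.0314). Tnc, which encodes the matrix protein tenascin C, measured 194 and 166 and 0 in both IHC libraries, at least 1765-fold lower (log2 fold change -15.24, SE 2.5, adjusted p = 0.0363), and Rnf182, a ubiquitin ligase, 72.8 and 29.1 and 0, at least 499-fold lower (log2 fold change -13.42, SE 1.74, adjusted p = 0.0149). Of the 42 genes called lower, 6 had no count in either IHC library and 6 more had 1 to 3. Ryr1, the calcium release channel of skeletal muscle, measured 212 and 344 in OHCs (P7) and 3 counts over both IHC libraries (5992-fold from the summed counts, 95% counting interval 2050.0 to 29059.7; adjusted p = 0.00141). Dnahc8, an axonemal dynein heavy chain, measured 112 and 209.5 and 2 counts (5332-fold from the summed counts, 95% counting interval 1476 to 44032; adjusted p = 0.0149), and Zfp503, a zinc finger factor, 168 and 178 against 0.0337 and 0.103 in IHCs (log2 fold change -11.21, SE 2.0, adjusted p = 0.0444).
The OHCs (P22) split these genes. In OHCs (P22), Ryr1 was at 390.93 and 95.2 CPM, Dnahc8 at 7.41 and 71.3 and Lmod3 at 558 and 344, whereas Rnf182 was at 0.176 and 0.0842, Rasd2 at 0.176 and 5.31, Tnc at 0 and 10.2 and Zfp503 at 0.176 and 11.9. Trak1, a mitochondrial transport adaptor among the 8 most abundant genes called lower, measured 1295 and 1633 in OHCs (P7), 45.7 and 116 in IHCs and 399 and 389.02 in OHCs (P22) (log2 fold change -4.18, SE 0.75, adjusted p = 0.0459).

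Further genes called lower, of varied function, are named after their values were seen. Nrxn3, a neurexin of presynaptic adhesion, measured 366 and 537 CPM in OHCs (P7), 0.741 and 0.619 in IHCs and 1.85 and 0.927 in OHCs (P22) (log2 fold change -9.36, SE 1.55, adjusted p = 0.0314). Dnm3, a dynamin of endocytosis, measured 549 and 409, 17.8 and 23.6 and 1969 and 933 in the same order (log2 fold change -4.53, SE 0.76, adjusted p = 0.0314). Nrxn3 was thus low in both mature groups, and Dnm3 was low in IHCs alone among the 6 libraries. Faim2, an inhibitor of Fas-driven cell death, measured 411 and 482, 4.01 and 2.41 and 1001 and 457 (log2 fold change -7.12, SE 0.74, adjusted p = 0.00246). Atp8a2, a phospholipid flippase, measured 113 and 135, 0.674 and 1.17 and 199.8 and 185 (log2 fold change -7.06, SE 0.92, adjusted p = 0.0149), and Bmp3, a ligand of the bone morphogenetic protein family, 50.0 and 71.4, 0.236 and 0.103 and 436 and 277 (log2 fold change -8.44, SE 1.44, adjusted p = 0.0339). All 3 were low in IHCs and present in OHCs of both ages.
Cacng5, an auxiliary subunit of glutamate receptors, measured 15.2 and 20.1 CPM in OHCs (P7), 0.202 and 0.103 in IHCs and 204 and 168 in OHCs (P22) (log2 fold change -6.81, SE 0.99, adjusted p = 0.0175). Olfm1, a secreted olfactomedin of neurons, measured 357 and 382, 27.2 and 11.1 and 1057 and 556 (log2 fold change -4.27, SE 0.72, adjusted p = 0.0338), and Tmem229a, a membrane protein gene, 673 and 642, 40.6 and 26.5 and 1822 and 1616 (log2 fold change -4.29, SE 0.63, adjusted p = 0.0175). For these 3, both OHC (P22) libraries lay above both OHC (P7) libraries, and IHCs were lowest. The difference between OHCs (P22) and OHCs (P7) was not called by edgeR (adjusted p = 0.106, 0.438 and 0.314 in the order named). Pla2g7, the secreted hydrolase of platelet-activating factor, measured 740.3 and 632, 1.41 and 11.8 and 116 and 44.3 (log2 fold change -6.70, SE 1.06, adjusted p = 0.0277), and Ucp2, a mitochondrial carrier, 219.7 and 515, 0.573 and 6.15 and 72.9 and 24.3 (log2 fold change -6.77, SE 1.20, adjusted p = 0.0444). Of the remaining genes called lower, Gstm7, a glutathione transferase, stood at 44.6 and 92.1 CPM in OHCs (P7) and 0.0882 and 0.295 in OHCs (P22), next to 0.0337 and 0.0687 in IHCs.

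Ighm, the constant region of the immunoglobulin M heavy chain, measured 4076 and 4549 CPM in OHCs (P7), 2 counts in the P74 IHC library and 0 in the P75 library, and 0.0882 and 18.6 in OHCs (P22) (129695-fold from the summed counts, 95% counting interval 35903 to 1070940.0; log2 fold change -16.77, SE 2.25, adjusted p = 0.0149; chromosome 12, 114659078 to 114660941). The B cell genes Cd79a, Cd79b, Igkc and Rag1 had no count in either OHC (P7) library. Without strand in the counting notes used here, reads of overlapping or antisense transcripts at this locus cannot be told apart.

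**Figure D3:**
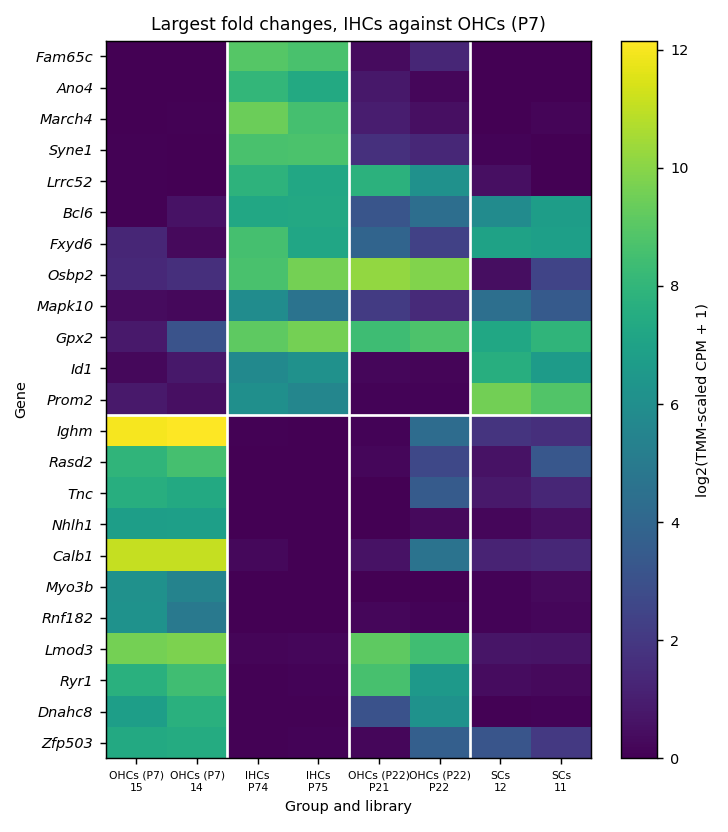
Heat map of log2(TMM-scaled CPM + 1) for the 12 largest rises (upper block) and 11 of the 12 largest falls (lower block) among the named calls, with columns for OHCs (P7), IHCs, OHCs (P22) and SCs. Lrrc52, Osbp2 and Gpx2 are bright in all 4 mature hair cell libraries, Fam65c and Ano4 in IHCs, and Calb1 and Ighm in both OHC (P7) libraries.

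Lists of energy metabolism and translation had medians below 0, with no member called by edgeR. Of 82 nuclear oxidative phosphorylation genes tested, 57 had both IHC libraries below both OHC (P7) libraries, against 23.0% of all tested genes, and 4 both above, against 23.6%, with a median of −1.08 on the log2 scale against 0 over all genes. edgeR called 0 of them, 16 had an unadjusted p under 0.05, all lower, and limma-voom called 2 and DESeq2 5, all lower. Atp5b, the beta subunit of the ATP synthase, measured 1934 and 2287 CPM in OHCs (P7), 476 and 435 in IHCs and 219 and 814 in OHCs (P22) (adjusted p = 0.154; limma-voom 0.00693). The summed level of the list was 11854 and 11520.3 CPM in OHCs (P7), 4907 and 5857 in IHCs and 5406 and 5461 in OHCs (P22).
Of 81 cytosolic ribosomal protein genes, 61 had both IHC libraries below and 1 both above, with a median of −0.82. edgeR and limma-voom called 0, DESeq2 called 3 lower, against 3.84% of all genes, and 19 had an unadjusted p under 0.05 in edgeR, all lower. Their summed level was 15365 and 14957 CPM in OHCs (P7), 7819 and 9184 in IHCs and 5651 and 6362 in OHCs (P22). With library totals only in place of TMM factors, the median of all genes moved to 0.13, and the 2 lists stood at −0.93 and −0.68. Both sums were lower in the 2 libraries of each mature hair cell group than in OHCs (P7). Those 2 groups also had the lower share of reads counted on genes. In SCs (libraries 12 and 11) that share was 55.8% and 52.2%. Their summed levels were 5693 and 6582 CPM for oxidative phosphorylation genes, and 19435 and 30110 for ribosomal protein genes. The part of this share in the 2 lists was not tested.

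edgeR called no member of 3 lists tied to immaturity. Of 18 fetal growth and imprinted genes tested, 4 had an unadjusted p under 0.05 in edgeR. Of these, 3 were higher in IHCs and 1 lower, against 6.29% and 6.22% of all tested genes. In both IHC libraries 7 were higher and 4 lower, against 23.6% and 23.0%. limma-voom called 1 higher, and DESeq2 called 1 higher and 1 lower. Igf2, a fetal growth factor, measured 31 and 0.655 CPM in OHCs (P7) and 0 in both IHC libraries (adjusted p = 0.326), so that its level rested on library 15. Meg3, an imprinted noncoding RNA, measured 0.806 and 0 in OHCs (P7) and 313 and 147 in IHCs (adjusted p = 0.207; limma-voom 0.0341). Of 14 immature neuronal cytoskeleton genes and 15 cell cycle genes, edgeR and limma-voom called 0. In edgeR, 1 of the former, higher in IHCs, and 0 of the latter had an unadjusted p under 0.05. DESeq2 called 1 of each higher. The medians of these 3 lists were 0.01, 0.41 and 0, and their signs turned with single libraries: −0.32 for the first without the P74 library, and −0.16 and −0.99 for the other two without the P75 library.

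**Figure D4:**
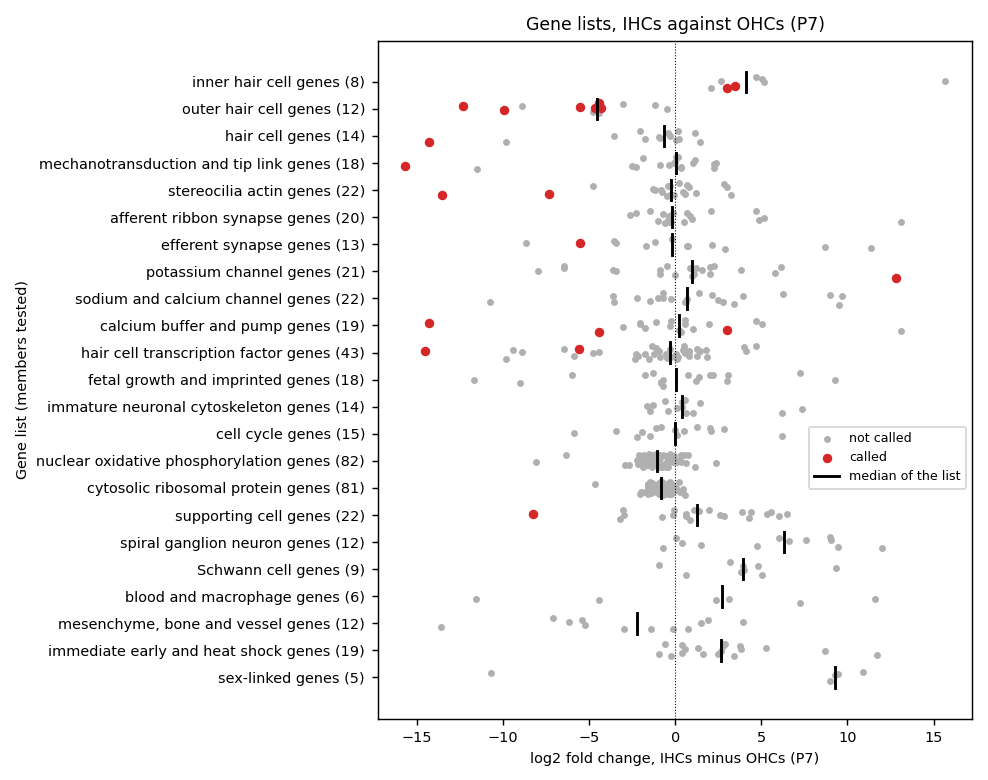
Log2 fold change, IHCs minus OHCs (P7), of each tested member of 23 gene lists, with called genes in red and the median of each list as a bar. The IHC and OHC lists stand apart from 0 in opposite directions (medians 4.08 and −4.55), and the oxidative phosphorylation and ribosomal lists are narrow and shifted to the left (−1.08 and −0.82).

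Transcripts of other cochlear cells were present on both sides. Over 22 supporting cell genes the summed level was 1059 and 2757 CPM in OHCs (P7), 1937 and 1875 in IHCs, 65.4 and 36.2 in OHCs (P22) and 7014 and 7698 in SCs, and the 2 groups compared overlapped. The overlap was set by Tectb: the other 21 members summed to 435 and 1146 CPM in OHCs (P7) and 1932 and 1873 in IHCs, both higher than in OHCs (P7). Tectb, which encodes beta-tectorin of the tectorial membrane, was the one called by edgeR: 624 and 1611 CPM in OHCs (P7), 4.75 and 2.47 in IHCs and 292 and 331 in SCs (log2 fold change -8.27, SE 1.45, adjusted p = 0.0412), and limma-voom did not call it (adjusted p = 0.0591). Gjb2, the gap junction gene of supporting cells, measured 14.1 and 37.2 in OHCs (P7) and 611 and 468 in IHCs, and Slc1a3, the glutamate transporter of the cells around IHCs, 2.62 and 3.98 and 243 and 193 (adjusted p = 0.254 and 0.274). The members differed in direction. Of 22, 10 were higher in both IHC libraries, against 23.6% of all tested genes, and 3 lower in both, against 23.0%. Their median was 1.23, and 4.76 without OHC (P7) library 14. limma-voom called 0 of them. DESeq2 called 6 higher, against 4.04% of all tested genes, and 1 lower, against 3.84%.
Over spiral ganglion neuron genes the sum was 301 and 388.90 CPM in OHCs (P7) and 716 and 813 in IHCs. Of 12 tested, 9 were higher in both IHC libraries, against 23.6% of all tested genes. edgeR called 0 of the 12, and 6 had an unadjusted p under 0.05, all higher, against 6.29%. limma-voom called 2 higher and DESeq2 3, against 1.01% and 4.04%. Nefh, a neurofilament gene, measured 1.61 and 0.0273 and 80.7 and 72.9, and Slc17a7, the glutamate transporter of neurons, 0 in both OHC (P7) libraries and 35.8 and 2.92 in IHCs. Schwann cell genes summed to 44.3 and 38.6 and 59.8 and 310.4, and blood and macrophage genes to 18.5 and 15.7 and 46.2 and 48.3. Mesenchyme, bone and vessel genes summed to 685 and 1521 in OHCs (P7) and 472 and 359 in IHCs, of which Col1a2 and Col3a1 were found in OHC (P7) library 15 and not in library 14. edgeR called 0 members of these 3 lists, with 2 Schwann cell genes, 2 blood genes and 1 mesenchyme gene at an unadjusted p under 0.05; limma-voom called 3 blood genes, 2 of them higher, and DESeq2 called 2 Schwann cell genes, 2 blood genes and 1 mesenchyme gene. The part of these transcripts in the differences between IHCs and OHCs (P7) was not tested.

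Stress transcripts differed from OHCs (P7) most in the P75 IHC library, and sex-linked transcripts split with the groups. Over the immediate early and heat shock genes, the sum was 1008 and 971 CPM in OHCs (P7) and 1267 and 3279.8 in IHCs. Of 19 tested, 11 were higher in both IHC libraries, against 23.6% of all tested genes, and 2 lower in both, against 23.0%, with a median of 2.65. edgeR called 0, with 8 at an unadjusted p under 0.05, all higher, against 6.29%. limma-voom called 1 higher and DESeq2 4, against 1.01% and 4.04%. Egr1 measured 77.5 and 129.6 in OHCs (P7) and 166 and 1134 in IHCs, and Fosb 2.82 and 6.47 and 2.29 and 363, so that the P75 IHC library stood above the P74 one for both. Without the P75 library the median was 0.68.
Xist, the noncoding RNA of the inactive X chromosome, measured 1946 and 1736 CPM in OHCs (P7), 1.18 and 1.03 in IHCs and 0.882 and 841 in OHCs (P22) (log2 fold change -10.70, SE 3.65, adjusted p = 0.302). Ddx3y, a Y-linked helicase gene, measured 0.0671 and 0.0818, 52.3 and 29.6 and 33.9 and 0.0421 in the same order (log2 fold change 9.0, SE 3.67, adjusted p = 0.376), and Eif2s3y, Kdm5d and Uty had the same pattern. Both OHC (P7) libraries thus held Xist and no more than 0.134 CPM of any of these Y-linked genes, and both IHC libraries held the Y-linked genes and no more than 1.18 CPM of Xist, so that sex cannot be told apart from cell type and age in this comparison.

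**Figure D5:**
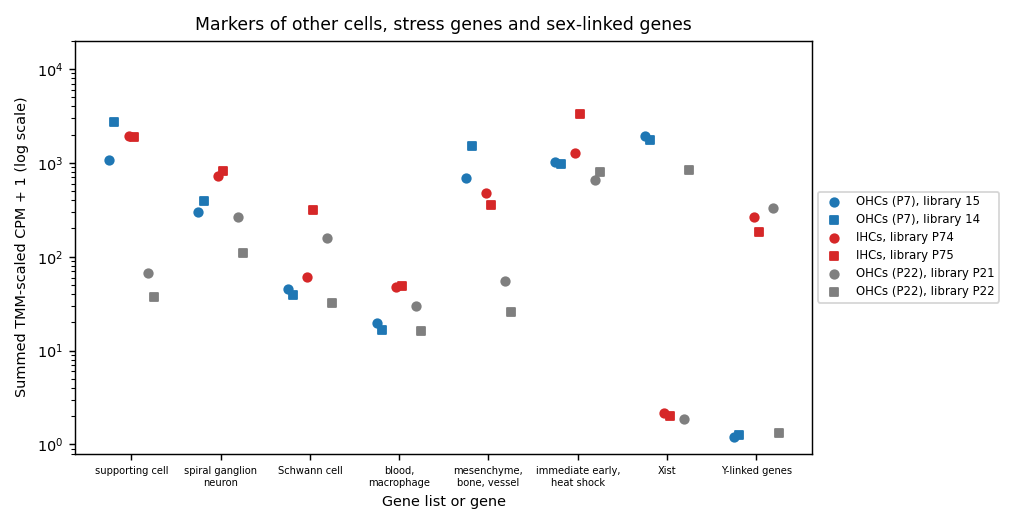
Summed TMM-scaled CPM plus 1 (log axis) of gene lists for other cell types and stress, and of Xist and 4 Y-linked genes, one point per library. Supporting cell sums of IHCs (red) lie within the range of OHCs (P7) (blue), a range set by Tectb, while Xist and the Y-linked sum separate the 2 groups completely.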

How the data were processed

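RNA of handpicked cells was amplified by single primer isothermal amplification, and the authors deposited unnormalized counts per gene symbol, made with CASAVA 1.7, Cutadapt, STAR, BWA and HTSeq on mm9; whether counting used strand is not given in the sources used here. The file of each library was taken by its name and checked against the scaled CPM table of the study, to which its counts stood in constant ratio. The unassigned classes of HTSeq, which name no gene, stayed out of totals and tests: they held 47.2% and 48.3% of read pairs in OHCs (P7) and 60.0% and 59.7% in IHCs. The authors' own columns of comparisons were not used.

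Counts of all 10 libraries were fitted with edgeR 4.0.16 in R 4.3.3 (TMM, filterByExpr by cell type, quasi-likelihood F-test, 2-sided), and p values were adjusted by Benjamini-Hochberg over the 16891 genes kept. The SE of a log2 fold change is its size over the root of F. limma-voom 3.58.1 and DESeq2 1.42.0, without its outlier handling and independent filtering, were alternatives, beside other filters, scalings and sets of libraries. All 3 were tested on simulated data, where edgeR and limma-voom kept false calls near the set rate but missed most changed genes, while most calls of DESeq2, run this way, were false. The simulated counts were drawn with the gene dispersions that edgeR estimated from these data, and changed genes moved by 4 log2 units. Such a setting can favour edgeR, so it cannot rank the methods on the real counts. Intervals and floors cover counting error only. Exact permutation of 2 against 2 libraries cannot go below p = 0.333 and was not used. Genes were named by the 12 largest changes and the 8 highest levels in each direction among the calls, and as called or defining members of 23 lists; other genes were named after their values were seen, and some results under this rule are not reported here. The comparison, the members and the lists were chosen with earlier results of these data known. Gene positions are from GENCODE vM1 (mm9), and promoters from RefSeq (GRCm38.p6). Python 3.11.15, pandas 2.3.3, scipy 1.17.1 and matplotlib 3.10.9 were used.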

Additional observations from a re-analysis of the deposited data

How the results depend on the processing

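Against 64 genes called between IHCs and OHCs (P7), 22 higher and 42 lower, DESeq2 called 1330 (682 and 648), limma-voom 367 (171 and 196), no filter on low counts 604 (325 and 279), a minimum of 10 counts in each of the 4 libraries 39 (13 and 26), more than 35 CPM in 2 libraries 154 (61 and 93) and a fit of only the 4 libraries 124 (56 and 68). RLE scaling gave 61, library totals only 59 and thinning to the smallest total 69. Of the 64 calls, 45 were kept in the fit of only the 4 libraries, 60 with RLE scaling, 55 with library totals only and 62 after thinning. With a minimum of 10 counts, 36 of the 64 were tested and all 36 were kept. With each record keeping the file attached to it, 0 were called (0 higher, 0 lower, 1141 at an unadjusted p under 0.05), and Mapk10 was reversed at −0.021; this alternative compares other libraries by construction. IHC genes called higher numbered 7 with DESeq2, 7 with limma-voom, 7 without a filter, 4 above 35 CPM, 6 with only the 4 libraries and 0 as attached, against 2; OHC genes called lower numbered 0 as attached, against 6. Leaving out each library in turn gave 37 to 62 calls, 9 to 21 higher and 23 to 53 lower, 0 IHC genes in each case and 5 to 6 OHC genes. For IHCs against OHCs (P22), DESeq2 called 2042 and no filter 1156, against 247; for OHCs (P22) against OHCs (P7) they called 1640 and 844, against 93.

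All 64 genes kept their direction under every alternative in which they were tested except the attached files, where 63 did. The supporting cell list without Tectb was added after the data were seen. No paired analysis was possible because the groups compared share no replicate numbers. The share of calls that were higher was 34.4%, and 53.8% without a filter, 51.3% with DESeq2, 46.6% with limma-voom and 45.2% with only the 4 libraries. With 2 libraries a side and a spread between them this wide, a gene that was not called cannot be taken as equal.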
